A study of Mus musculus with 7 samples.

Results

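The genes of the La-related proteins (Larp1, Larp1b, Larp4, Larp4b and Larp7) and of the poly(C)-binding proteins (Pcbp1, Pcbp2, Pcbp3 and Pcbp4) were followed in lipid droplet-rich microglia of young and old mice. The 9 genes were picked by symbol from the 50686 genes listed for each library, 5 of them La-related and 4 poly(C)-binding. They were picked with differences between old and young mice already known, so values of this contrast, including whether a gene passed a threshold over all genes, are given for them as a description and not as a test.

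The study compared microglia of young (3-4 months, n = 4, mice 14C, 18C, 23C and 29C) and old (21-22 months, n = 3, mice 2posI, 3posI and 4posI) male mice in the C57BL/6 background. All 7 mice had received a 45 min occlusion of the middle cerebral artery, with isoflurane anesthesia and buprenorphine analgesia for the surgery. No treatment to deplete microglia is named for them, and the forebrain was taken 4 days later. Cells were sorted by CD11b, CD45 and the dye Bodipy, which stains neutral lipid, and the Bodipy+ microglia of each mouse gave 1 library of polyadenylated RNA, amplified with Smart-seq2 because of the low input. Mice without ischemia and cells low in lipid were not analysed here, so the ages are compared only within lipid-rich cells of the ischemic brain.

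La-related proteins share the La motif, an RNA-binding fold named after the La protein, which protects the ends of newly made small RNAs. Family members have taken on different tasks, from holding mRNAs that code for the translation machinery under control of the kinase mTORC1 (LARP1), to poly(A) tail protection (LARP4, LARP4B) and restraint of transcription elongation within the 7SK particle (LARP7). Poly(C)-binding proteins bind C-rich RNA through KH domains. They take part in splicing, mRNA stability and translation, PCBP1 and PCBP2 also hand iron to ferritin and to iron enzymes, and both proteins have been linked to the turnover of MAVS, the adaptor of cytosolic RNA sensing in innate immune cells.

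Expected counts (reads assigned to genes by a model that divides ambiguous reads) summed to between 45379786 and 53002386 in the young and between 36574083 and 46133564 in the old libraries. Of the 17559 genes tested, 141 differed between ages at an adjusted p under 0.05 in edgeR's quasi-likelihood test, 100 of them higher and 41 lower in old mice, and 3326 (18.9%) had an unadjusted p under 0.05. DESeq2 called 1399 genes, or 7.97%. All 8 microglial markers were detected, with summed CPM (expected counts scaled to a common library total) of 16040 to 26068 in young against 8738 to 19545 in old mice. Old mouse 3posI had the lowest microglial sum and the highest sum of 4 monocyte markers (1737 CPM, against 14.4 to 71.0 in young mice and 57.2 and 99.6 in the other old mice). It also had the highest sum of 5 markers of border-associated macrophages (850 CPM, against 50.5 to 286 in young mice). The 4 endothelial markers summed to 49.4 to 94.2 CPM in young and 40.5 to 49.2 in old mice, and 4 T cell markers to at most 0.585 CPM in young and at least 1.04 in old mice. The B cell, neutrophil, astrocyte, oligodendrocyte and neuron lists overlapped between ages. Genes annotated as ribosomal RNA took 4.14 to 4.99% of the counts in young and 2.21 to 3.37% in old libraries. The part that any of these differences had in the values below was not tested, but values without 3posI are given.

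TPM values, which are scaled within a library and account for transcript length, allow levels to be compared between genes. Averaged over the 7 libraries, Pcbp1 stood first with 154 TPM and was above Pcbp2 in every library. Pcbp2 (38.0 TPM) and Larp7 (34.3 TPM) followed and had no common order over both ages, since Pcbp2 was above Larp7 in 4 of 7 libraries. These were each old library and that of young mouse 18C, while Larp7 was above Pcbp2 in young mice 14C, 23C and 29C. Larp4b (24.1 TPM) lay below Larp7 in all 7 libraries, and Larp4 (8.41 TPM) below Larp4b in all 7. Larp4 and Larp1 (6.14 TPM) overlapped, with Larp4 above Larp1 in 5 libraries. Larp1 was above Pcbp3 in all 7 libraries, although their ranges overlapped. The lowest levels were those of Pcbp3 (2.48 TPM), Pcbp4 (1.52 TPM) and Larp1b (0.851 TPM), whose ranges overlapped with their neighbours in this order. The order of Pcbp3 and Pcbp4 differed between ages, with Pcbp3 below Pcbp4 in each young library and above it in each old library.

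**Figure D1:**
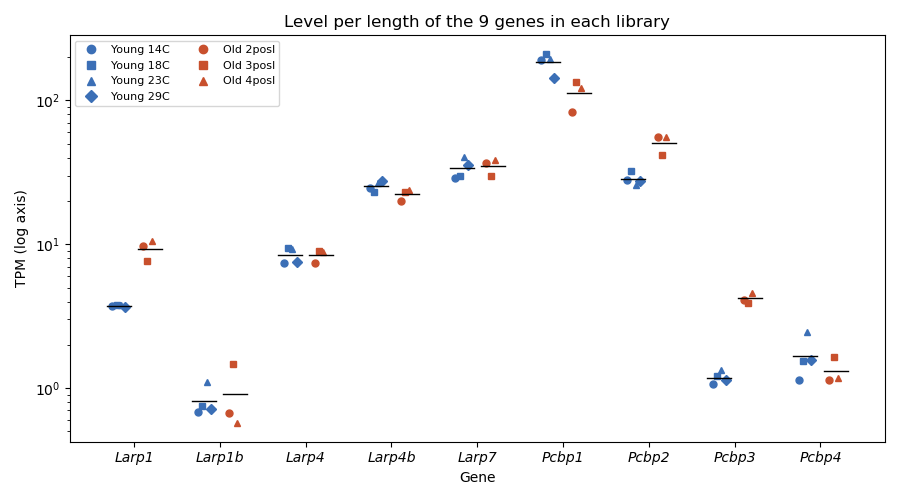
TPM of the 9 genes on a log axis, with 1 point per library (blue, young; red, old; symbols mark the mouse) and a black line at the mean of each age. The ages do not overlap for Larp1, Pcbp1, Pcbp2 and Pcbp3, and Pcbp1 is the most abundant of the genes in every library.

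Some of these genes set the ages apart. Larp1, Pcbp2 and Pcbp3 were higher in each old library than in any young library, and Pcbp1 was lower in each old library than in any young one. By edgeR, 3 of the 9 genes (Larp1, Pcbp2 and Pcbp3) were past the adjusted threshold, where 0.803% of all genes tested were, and all 3 were higher in old mice, as were 0.57% of all genes, while 0 were lower, as were 0.233%. In CPM the ages did not overlap for 4 of the 9 genes, against 17.7% of all genes tested, with 3 of the 9 higher in old mice (8.67% of all genes) and 1 lower (9.07%). Because this contrast was known when the genes were picked, these counts do not test the 9 genes and nothing is read from them. All 9 genes passed the filter on low counts. Their median log2 fold change between ages was 0.16, against -0.01 over all genes tested, and 7 of the 9 had a log2 fold change above 0. In a bulk library of sorted cells, fewer cells of a type and less RNA per cell cannot be told apart.

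Which genes were called depended on the libraries included. Without young mouse 14C, 18C or 29C, or without old mouse 2posI, none of the 9 genes passed, and over all genes 1, 1, 2 and 1 passed, respectively. Without young mouse 23C or old mouse 4posI, Larp1 and Pcbp3 passed but Pcbp2 did not, among 14 and 85 genes in all. Without 3posI the same 3 genes passed, among 159. The sizes of the differences moved little by comparison. Leaving out each library in turn kept the log2 fold change between 1.33 and 1.52 for Larp1, 0.81 and 1.05 for Pcbp2, 2.17 and 2.38 for Pcbp3, and -0.78 and -0.47 for Pcbp1.

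**Figure D2:**
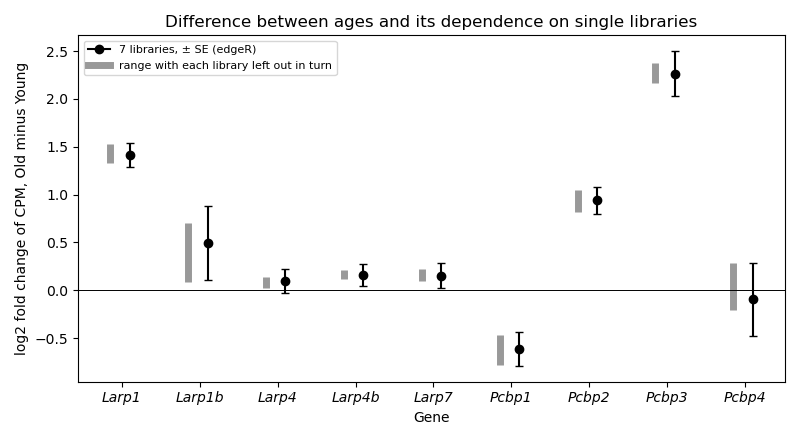
log2 fold change of CPM between ages (old minus young, edgeR) for the 9 genes, as points with the standard error, and the range obtained when each library was left out in turn (grey bars). Larp1, Pcbp2 and Pcbp3 lie above 0 and Pcbp1 below 0 in every setting drawn, whereas the range of Pcbp4 spans 0.

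Larp1 codes for the protein that binds the cap and the terminal oligopyrimidine tract of mRNAs for ribosomal proteins and translation factors, and that acts downstream of mTORC1. In CPM, it stood at 17.5, 17.4, 16.7 and 18.4 in young mice 14C, 18C, 23C and 29C, and at 52.1, 39.2 and 48.5 in old mice 2posI, 3posI and 4posI. The young values were tightly grouped, and the lowest old value was still above each of them. The mean was 17.5 ± 0.696 CPM (SD, n = 4) in young against 46.6 ± 6.70 CPM (SD, n = 3) in old mice, a log2 fold change of 1.41 (SE 0.13), or 2.66-fold. Without 3posI, the old library with the monocyte markers, the log2 fold change was 1.52. In TPM the means were 3.75 ± 0.0735 and 9.33 ± 1.51. The effective length of Larp1, which is the mean length of its annotated transcripts weighted by their estimated abundance, hardly moved, with a log2 difference of 0.01.

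The Larp1 gene lies on chromosome 11 (58009064 to 58062034, plus strand, GRCm38). Its promoter is shown here and those of Pcbp1 and Pcbp2 below, each with its base composition. The sequences are RefSeq's on build GRCm38.p6, cut to the bases upstream of the gene start in the GENCODE annotation. Capitals mark GC boxes (GGGCGG on either strand) and E-boxes (CACGTG, which reads the same on both strands). The 250 bases upstream of Larp1 (chr11:58008814-58009063, plus strand) are 86.8% G or C, against a median of 52.4% over 32851 mouse promoters of this length, and hold 7 GC boxes.
Larp1: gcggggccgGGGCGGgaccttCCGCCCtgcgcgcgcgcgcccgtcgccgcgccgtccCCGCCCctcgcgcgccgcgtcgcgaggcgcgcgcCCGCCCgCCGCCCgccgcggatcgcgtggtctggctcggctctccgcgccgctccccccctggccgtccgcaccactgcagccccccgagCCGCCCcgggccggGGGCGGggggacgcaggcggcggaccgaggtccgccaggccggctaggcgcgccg
At least 1 GC box stood in 32.7% of all promoters and an E-box in 6.02%. The match of letters says nothing of whether a factor binds there.

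Larp1b, a close relative of Larp1 whose function is less well known, was near the limit of what these libraries resolve. Its expected counts were 35, 41, 58 and 41 in young mice 14C, 18C, 23C and 29C and 36, 76 and 41 in old mice 2posI, 3posI and 4posI. The ages overlapped, and 3posI held the highest value. The log2 fold change in CPM was 0.49 (SE 0.39), and 0.08 without 3posI.

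Larp4 and Larp4b code for proteins that bind poly(A) tails and the poly(A)-binding protein and keep mRNAs from being shortened. Larp4 stood at 34.5, 42.3, 42.1 and 37.6 CPM in young mice 14C, 18C, 23C and 29C, and at 39.2, 45.9 and 40.3 CPM in old mice 2posI, 3posI and 4posI. The ages overlapped, with a log2 fold change of 0.10 (SE 0.12). Removing a trend of the fold changes with gene length turned it to -0.06.

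Larp4b was the only gene of the 9 with a log2 fold change above 0 in CPM and a log2 difference below 0 in TPM. Its CPM values were 74.5, 71.5, 83.8 and 88.4 in the young mice and 89.7, 89.8 and 87.0 in the old mice, in the same order of animals. The old values were close together, with 2posI and 3posI just above the young range and 4posI inside it, so the ages overlapped. The log2 fold change in CPM was 0.16 (SE 0.11), but the log2 difference in TPM was -0.19, in FPKM -0.11, in TPM rescaled by library medians -0.08, and with the effective length as an offset in edgeR -0.09. Over all genes tested, the median log2 difference in TPM was -0.13, so TPM differences are read against that shift.

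TPM divides counts by the effective length, which for Larp4b was longer in old mice. It was 4221, 4474, 4476 and 4221 bases in young mice 14C, 18C, 23C and 29C, and 5461, 4955 and 5211 bases in old mice 2posI, 3posI and 4posI. The shortest old value lay well above the longest young value. The mean was 4348 ± 147 bases (SD, n = 4) in young against 5209 ± 253 bases (SD, n = 3) in old mice, a log2 difference of 0.26, or 1.20-fold. The gene has 7 annotated transcripts in the annotation used here, of 385 to 5720 bases, among them a transcript of 4666 bases with a retained intron. The deposited values give the gene's average and not the share of each transcript. Of the 11765 genes tested whose effective length varied between libraries, 19.3% had ages that did not overlap, and 16.0% differed between ages by at least as much as Larp4b in either direction. Such a shift was thus not rare among all genes.

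The other 7 genes with a varying effective length differed less clearly. The values for Pcbp3 (log2 difference 0.34), Larp1b (0.29) and Pcbp4 (0.22) overlapped between ages, and each of these genes had few reads. Those of Larp1, Larp7 and Pcbp2 overlapped and differed by at most 0.01 on the log2 scale, and the ages of Larp4 were separated by less than 1 base. Pcbp1 has a single annotated transcript, so its effective length was the same in every library (1781 bases). The median log2 difference over the 8 genes was 0.12, against 0.01 over all genes that varied.

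**Figure D3:**
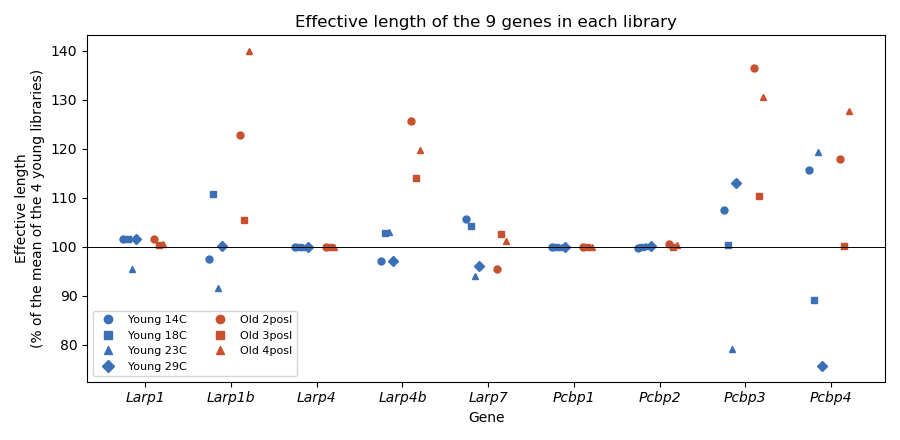
Effective length of the 9 genes in each library, as a percentage of the mean of the 4 young libraries (blue, young; red, old; symbols mark the mouse). The ages are separated for Larp4b (1.20-fold longer on average in old mice), Pcbp1 is constant, and the low-count genes Larp1b, Pcbp3 and Pcbp4 scatter within each age.

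Larp7 codes for a protein that binds and stabilizes 7SK RNA, the scaffold on which the elongation kinase P-TEFb is held inactive. It stood at 25.7, 25.6, 31.6 and 30.8 CPM in young mice 14C, 18C, 23C and 29C, and at 34.0, 28.6 and 32.0 CPM in old mice 2posI, 3posI and 4posI. The ages overlapped, with a log2 fold change of 0.15 (SE 0.13) in CPM and 0.07 in TPM. Larp7 made up the largest share of the TPM summed over the 5 La-related genes, with 46.6 ± 2.61% (SD, n = 4) in young against 46.1 ± 3.62% (SD, n = 3) in old mice.

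The summed TPM of the La-related genes overlapped between ages, at 65.3 to 80.8 in young against 71.2 to 82.1 in old mice, while their make-up differed. Larp1 took 5.70, 5.69, 4.71 and 4.89% of this sum in the young mice and 12.98, 10.76 and 12.92% in the old mice, and these ranges did not overlap. The share of Larp4b was 32.7 to 37.8% in young against 26.8 to 32.3% in old mice. The ratio of Larp1 to Larp4 in TPM was 0.451 ± 0.0481 (SD, n = 4) in young against 1.12 ± 0.241 (SD, n = 3) in old mice, so that Larp1 was below Larp4 in every young library and above it in 2posI and 4posI.

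Pcbp1 codes for an abundant poly(C)-binding protein and iron chaperone, and the gene is known to lack introns. Its CPM values were 243, 261, 243 and 196 in young mice 14C, 18C, 23C and 29C, and 121, 187 and 152 in old mice 2posI, 3posI and 4posI. The gap between ages was narrow, since young mouse 29C and old mouse 3posI were less than 10 CPM apart. The mean was 235 ± 27.9 CPM (SD, n = 4) in young against 154 ± 33.0 CPM (SD, n = 3) in old mice, a log2 fold change of -0.62 (SE 0.18), or 1.53-fold lower in old mice. In TPM it was 184 ± 28.7 and 113 ± 26.3, a log2 difference of -0.72. Pcbp1 was not past the threshold in edgeR but was in DESeq2, in which 1399 genes (7.97%) passed.

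Pcbp2 codes for the closest relative of PCBP1, with several introns and splice forms. It stood at 55.3, 62.0, 50.7 and 58.5 CPM in young mice 14C, 18C, 23C and 29C, and at 127, 91.0 and 108 CPM in old mice 2posI, 3posI and 4posI. Each old value lay well above the young range. The mean was 56.6 ± 4.80 CPM (SD, n = 4) in young against 108 ± 17.8 CPM (SD, n = 3) in old mice, a log2 fold change of 0.94 (SE 0.14), or 1.92-fold.

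In CPM the old mice fell in the same order, or its reverse, in 4 genes. Mouse 2posI had the highest CPM of Larp1, Pcbp2 and Pcbp3 and the lowest of Pcbp1, and 3posI had the lowest old CPM of Larp1, Pcbp2 and Pcbp3 and the highest old CPM of Pcbp1. Without 3posI the log2 fold change was -0.78 for Pcbp1, 1.05 for Pcbp2 and 2.38 for Pcbp3. For the genes whose ages overlapped and that are not given above, it was 0.02 for Larp4, 0.15 for Larp4b, 0.22 for Larp7 and -0.19 for Pcbp4.

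Pcbp1 and Pcbp2 differed between ages in opposite directions, and the ages did not overlap in their ratio. The ratio of Pcbp1 to Pcbp2 in TPM was 6.82, 6.54, 7.47 and 5.21 in young mice 14C, 18C, 23C and 29C, and 1.50, 3.20 and 2.21 in old mice 2posI, 3posI and 4posI. Its mean was 6.51 ± 0.949 (SD, n = 4) in young against 2.30 ± 0.855 (SD, n = 3) in old mice. Pcbp1 made up 85.4 ± 1.88% of the TPM summed over the 4 Pcbp genes in young and 66.1 ± 8.03% in old mice, and Pcbp2 13.3 ± 1.81% and 30.6 ± 7.74%. The summed TPM overlapped between ages, at 174 to 246 in young against 144 to 183 in old mice.

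**Figure D4:**
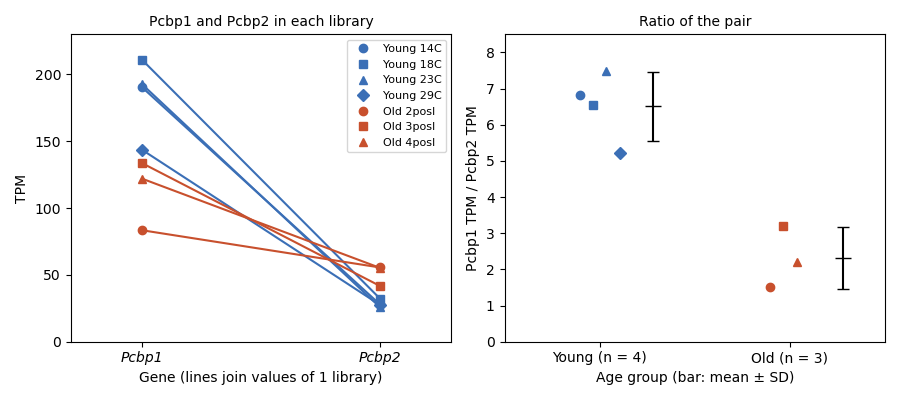
Left, TPM of Pcbp1 and Pcbp2, with a line joining the values of 1 library (blue, young; red, old). Right, the ratio of Pcbp1 to Pcbp2 in each library with the mean ± SD of each age: 5.21 to 7.47 in young against 1.50 to 3.20 in old mice.

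The promoter windows of this pair differ in length, so their base compositions are not compared with each other. Pcbp2 lies on chromosome 15 (102470539 to 102500061, plus strand), and the 250 bases upstream of it (chr15:102470289-102470538, plus strand) are 70.4% G or C and hold 2 GC boxes.
Pcbp2: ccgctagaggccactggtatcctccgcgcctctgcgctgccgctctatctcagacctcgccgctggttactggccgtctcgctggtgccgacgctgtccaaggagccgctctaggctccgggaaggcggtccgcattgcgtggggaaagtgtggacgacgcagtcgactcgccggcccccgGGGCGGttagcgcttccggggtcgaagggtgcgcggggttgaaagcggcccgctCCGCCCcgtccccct
Pcbp1 lies on chromosome 6 (86524492 to 86526321, minus strand), and its GENCODE start is upstream of the RefSeq start, so only 118 bases of the RefSeq window lie outside the gene (chr6:86526322-86526439, minus strand). They are 60.2% G or C and hold an E-box and no GC box.
Pcbp1: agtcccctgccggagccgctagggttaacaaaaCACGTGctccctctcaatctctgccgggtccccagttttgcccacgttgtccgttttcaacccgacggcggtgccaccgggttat
Over the 32851 promoters, the same 118 bases of the RefSeq window, those farthest from the RefSeq start, held a GC box in 12.6% and an E-box in 2.13%. In Pcbp1 these bases border the GENCODE start, so the rates are for an unlike position in genes where both starts agree. Promoters of 7 of the 9 genes were in the table used, all but Pcbp3 and Pcbp4.

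Both genes share sequence with a neighbour on the opposite strand, which matters because the libraries do not keep the strand. The 3′ end of Pcbp2 overlaps Map3k12, a kinase gene on chromosome 15 (102497646 to 102517064), and 42.5% of the 50-base stretches in Pcbp2 transcripts also occur in Map3k12 transcripts. The expected count of Pcbp2 was not a whole number in any library, so part of its reads was divided between genes. Map3k12 itself had 374 to 532 expected counts in young and 221 to 446 in old mice, against 2552 to 2770 and 3562 to 4991 for Pcbp2. With the counts of all genes that share sequence added, the log2 fold change of Pcbp2 was 0.79 and the same 3 genes were past the threshold. Pcbp1 overlaps the antisense gene 1600020E01Rik only at its start, and adding that gene's counts (201 to 641) gave -0.61.

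Pcbp3 codes for a poly(C)-binding protein that, unlike PCBP1 and PCBP2, is described mainly outside the nucleus. It was scarce but showed the largest fold difference of the 9 genes. The expected counts were 51, 51, 52 and 62 in young mice 14C, 18C, 23C and 29C, and 209, 181 and 265 in old mice 2posI, 3posI and 4posI. Each old library had several times the counts of any young library, while the old libraries were shallower than the young ones, except that 4posI was slightly deeper than 18C. The mean was 1.15 ± 0.133 CPM (SD, n = 4) in young against 5.53 ± 0.819 CPM (SD, n = 3) in old mice, a log2 fold change of 2.26 (SE 0.24), or 4.80-fold. The log2 difference in TPM was 1.75, and with the effective length as an offset the log2 fold change was 1.93. Pcbp3 spans chromosome 10 from 76761857 to 76961887 (minus strand).

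Pcbp4, which has been linked to cell cycle arrest, had expected counts of 60, 59, 146 and 59 in young mice 14C, 18C, 23C and 29C, and 51, 70 and 67 in old mice 2posI, 3posI and 4posI. Young mouse 23C stood apart. Scaled for depth, the other 3 young mice were at 1.27 to 1.32 CPM, below the old mice at 1.45 to 1.79 CPM, while 23C was at 2.86 CPM, above them. The log2 fold change in CPM was -0.09 (SE 0.38), and 0.29 without 23C.

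A few relatives outside the families as listed are given beside them. Ssb, the La protein itself, stood at 106 to 116 CPM in young and 118 to 146 CPM in old mice, which did not overlap, but its TPM overlapped between ages (log2 difference -0.09) and its effective length was longer in each old library (1241 bases on average in young and 1442 in old mice). Hnrnpk, a KH-domain protein akin to the PCBPs, overlapped between ages in CPM (670 to 754 in young, 637 to 694 in old mice), but its TPM was lower in each old library (717 to 760 in young, 673 to 681 in old mice, a log2 difference of -0.13, close to the median over all genes). Larp6, which binds collagen mRNAs, had expected counts of 4, 3, 12 and 1 in young mice 14C, 18C, 23C and 29C and 0 in all 3 old libraries, where a count of 0 allows up to 3 counts per library (at most 0.082 CPM). Both ages are near this limit, so no fold is given.

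The genes that work with these proteins were grouped in 5 lists with 58 genes, all of which passed the filter. The lists, like the 9 genes, were chosen with earlier results of these data known. Their counts and p-values are therefore given as a description and not as a test. By edgeR, adjusted over all genes tested, 2 of the 58 were past the threshold, both higher in old mice, where 0.803% of all genes were. In CPM the ages did not overlap for 14 of the 58 (9 higher and 5 lower in old mice), against 17.7% of all genes. An unadjusted edgeR p under 0.05 was found for 16 of the 58, against 18.9% of all genes. The median log2 fold change was 0.08, and 32 were above 0.

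The 2 genes were Cnot6 and Egln1. Cnot6, a deadenylase subunit of the CCR4-NOT complex that removes poly(A) tails, stood at 13.9, 14.4, 16.1 and 20.9 CPM in young mice 14C, 18C, 23C and 29C and at 31.2, 37.5 and 32.6 CPM in old mice 2posI, 3posI and 4posI. It was higher in old mice by a log2 fold change of 1.05 (SE 0.17, edgeR adjusted p = 0.0383). Egln1, the oxygen-sensing prolyl hydroxylase of HIF that needs iron delivered by PCBPs, stood at 7.56, 6.60, 4.59 and 6.97 CPM in the young and 19.0, 14.4 and 13.9 CPM in the old mice, in the same order. Its log2 fold change was 1.30 (SE 0.21, edgeR adjusted p = 0.0401). Each old library was above each young library for both genes. With each library left out, the edgeR adjusted p was 0.0536 to 0.137 for Cnot6, which lost its call in all 7 cases, and 0.0447 to 0.122 for Egln1, which kept it only without 3posI. With the effective length as an offset it was 0.0584 for Cnot6 and 0.038 for Egln1, again by edgeR's adjusted p.

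Among the 21 genes of poly(A) tail binding and deadenylation, Cnot6 was the only one past the threshold in edgeR (0.803% of all genes), and 10 had a log2 fold change above 0. An unadjusted edgeR p under 0.05 was found for 7 of the 21 (18.9% of all genes). DESeq2, which called 7.97% of all genes, also called Rack1, Cnot3 and Cnot6l. Rack1, the ribosomal scaffold that binds LARP4B, was at 157 to 160 CPM in young and 224 to 244 CPM in old mice (log2 fold change 0.55, edgeR adjusted p = 0.0544). Cnot3, a non-catalytic CCR4-NOT subunit, was at 26.1 to 35.3 CPM in young and 14.6 to 19.8 CPM in old mice (log2 fold change -0.78, edgeR adjusted p = 0.0636). Neither passed in edgeR as run here, although the ages did not overlap for either gene. Rack1 also passed in edgeR with the filterByExpr filter, and Cnot3 and Cnot6l with no filter on low counts. Cnot6l passed without 3posI too, among 159 genes in all.

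Of the 13 genes of the iron list, 1 (Egln1) was past the threshold in edgeR (0.803% of all genes) and 7 had a log2 fold change above 0. In the same list, 3 genes had an unadjusted edgeR p under 0.05 (18.9% of all genes). DESeq2 (7.97% of all genes) also called Fth1. Fth1, the ferritin heavy chain that PCBP1 loads with iron, was at 4182 to 5733 CPM in young and 7105 to 13039 CPM in old mice (log2 fold change 0.85, edgeR adjusted p = 0.141), with 3posI highest. Ftl1, the ferritin light chain, overlapped between ages (log2 fold change 0.74, edgeR adjusted p = 0.217).

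With all 7 libraries, none of the 10 genes of the 7SK and P-TEFb list passed in edgeR, where 3 had an unadjusted p under 0.05 (18.9% of all genes). DESeq2 (7.97% of all genes) called Mepce, and limma-voom called none of them. Without 3posI, edgeR called Mepce as well, among 159 genes in all. Mepce, which caps 7SK RNA and works with LARP7, was at 6.49 to 10.4 CPM in young and 13.1 to 22.3 CPM in old mice, which is a log2 fold change of 1.06 (edgeR adjusted p = 0.076). Aff1, a scaffold of the super elongation complex, and Ccnt2, a cyclin of P-TEFb, overlapped between ages, with log2 fold changes of 0.51 and -0.37.

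None of the 8 genes of mTORC1 and cap binding passed in edgeR, where 2 had an unadjusted p under 0.05 (18.9% of all genes). DESeq2 (7.97% of all genes) called Eif4ebp1, and limma-voom called none. Eif4ebp1, the translation repressor that mTORC1 phosphorylates, was at 32.6 to 44.2 CPM in young and 49.8 to 67.0 CPM in old mice (log2 fold change 0.58, edgeR adjusted p = 0.101). Eif4e, the cap-binding protein, and Mlst8, an mTOR subunit, overlapped between ages, with log2 fold changes of 0.34 and -0.43.

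None of the 6 genes of nucleic acid sensing passed in edgeR, where 1 had an unadjusted p under 0.05 (18.9% of all genes), and neither DESeq2 nor limma-voom called any. Mavs was at 56.1 to 59.3 CPM in young and 44.3 to 51.3 CPM in old mice (log2 fold change -0.28, edgeR adjusted p = 0.191), ranges that did not overlap. The RNA sensors Ifih1 and Ddx58 overlapped between ages, with log2 fold changes of 0.41 and 0.36.

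**Figure D5:**
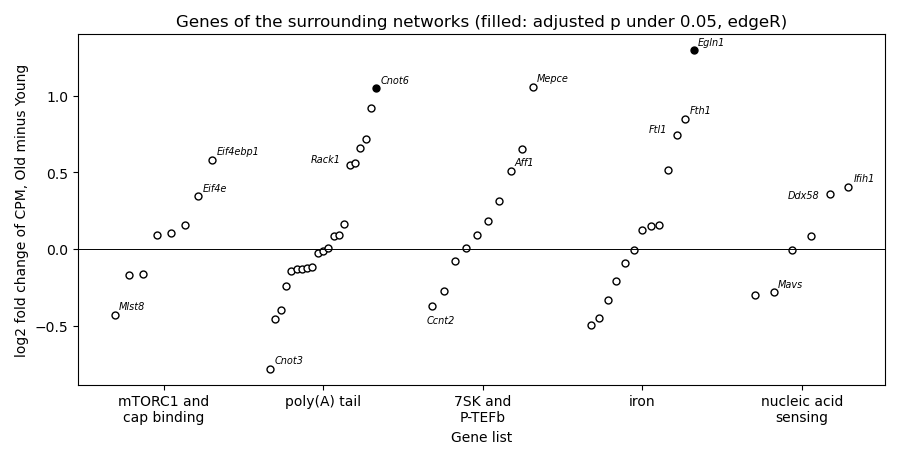
log2 fold change of CPM between ages (old minus young, edgeR) for 58 genes in 5 lists, ordered by size within each list. Filled points mark Cnot6 (1.05) and Egln1 (1.30), the 2 genes past the adjusted threshold, and the other named genes are open points.

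The genes whose CPM followed each of the 9 most closely over the 7 libraries were sought among 8146 genes with a mean of at least 10 CPM, for the 6 of the 9 that reach that level. The correlation (Pearson r of log2 CPM) is a description, since the 7 libraries include both ages. Genes that differ between ages in the same direction thus tend to follow each other. Larp1 was followed most closely by Ppp3cb, a catalytic subunit of calcineurin (r = 0.997), and by Rack1 (r = 0.995), and 85 genes had an r of at least 0.95. Pcbp2 was followed by Ctdnep1, a nuclear envelope phosphatase (r = 0.996), and by Eif4ebp2, a paralogue of Eif4ebp1 (r = 0.992). Pcbp1 was followed by Fam160b2 (r = 0.996) and Gcc1 (r = 0.993), both lower in old mice on average. An r of at least 0.95 was reached by 72 genes for Pcbp2 and by 82 for Pcbp1.

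The genes that did not set the ages apart had fewer close followers. Larp4 was nearest to Gmds (r = 0.980) and Vps4a (r = 0.973), with 2 genes at an r of at least 0.95. Larp4b was nearest to Ruvbl2 (r = 0.987) and Bub3 (r = 0.971), with 14 such genes, and Larp7 to Pmf1 (r = 0.972) and Hpf1 (r = 0.967), with 7.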

How the data were processed

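RNA of Bodipy+ microglia of 4 young and 3 old mice was measured. Age group and mouse come from the labels, and sex, day and sort from the study's methods and legends. According to the methods, skewer trimmed the reads, STAR aligned them to GRCm38 and RSEM quantified GENCODE genes. The submitters' processing notes name FastQC 0.11.5, while for STAR and RSEM no version is given. The deposited expected counts are not normalized, and 66.2% of those above 0 were whole numbers (tolerance 0.001). The TPM and FPKM values were scaled within each library by the authors, who also deposited an effective length in bases. The libraries do not keep the strand and no molecular identifiers are named, so limits from counts cover counting error only. Depth was 36574083 to 53002386 counts per library, and no pair of libraries was identical.

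Expected counts were rounded. Genes above 10 counts in at least 1 library, outside X, Y and the mitochondrial genome, were tested with edgeR 4.0.16 in R 4.3.3 (TMM factors, quasi-likelihood test, Benjamini-Hochberg adjustment, threshold 0.05), with age as the only term. CPM use TMM-scaled totals, and sums of markers plain totals. TPM differences are of log2(TPM + 0.1), which understates changes of low genes. GENCODE vM21, used for positions, lacks 224 of the 50686 identifiers and is not the authors' release. The fit was tested on simulated counts.

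The 9 genes and the lists were chosen with earlier results of these data known. Also named are Ssb, Larp6 and Hnrnpk, in each network list the 3 genes of smallest p and any past the threshold, the 2 genes most like each of the 9 with a mean of at least 10 CPM, and genes that share 50-base stretches or overlap. The alternatives were RLE and upper-quartile factors, limma-voom (limma 3.58.1), DESeq2 1.42.0, other filters, X, Y and mitochondrial genes kept, the effective length as offset, other pseudocounts, FPKM, rescaled TPM, the length column, and each library left out. Removing trends with GC content or gene length (lowess span 0.3) and summing counts over genes that share sequence were chosen after seeing the data.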

Additional observations from a re-analysis of the deposited data

Results flagged for a closer look

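Outliers were sought in 53 sets of 4 young values: the CPM, TPM or effective length of a gene, or a ratio, sum or share of TPM. The ratios, sums and shares reuse the same TPM values, so the sets are not independent. The gap of the highest or lowest mouse to its nearest neighbour, divided by the range, exceeded Dixon's limit in 4. Chance alone gives about 1 in 20, or 2.65 of 53. Young mouse 23C was the mouse that stood apart in all 4. For Pcbp4 the share was 0.968 in CPM, with 2.86 CPM in 23C and 1.27 to 1.32 in the other young mice. For Larp1b it was 0.833 in TPM, with 1.10 TPM in 23C and 0.68 to 0.75 in the others. For the effective length of Larp1 it was 1.0, with 6172 bases in 23C and 6568 in each of the others, and for that of Larp4 also 1.0, where the 23C value differed from the others by less than 1 base. In both effective lengths the other 3 young mice were exactly tied, so the share is 1.0 for a difference of any size, and the chance rate does not cover these sets. Groups of 3 old mice were too small for this test.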

How the results depend on the processing

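The number of genes past the threshold was 1399 (744 higher) by DESeq2, 288 (157 higher) with no filter on low counts and 213 with the effective length as offset, against 141, and 1 to 159 with a library left out. Over the 58 network genes it was 8, 4 and 1 under the first 3 of these settings, against 2, and 0 to 3 with a library left out. Over the 9 genes it was 4 by DESeq2, 3 under every other setting with all libraries, and 0 to 3 with a library left out. Their median log2 fold change was 0.14 to 0.29 with a library left out, the highest without 23C, and their median effective length difference was 0.058 to 0.16, the lowest without 29C. The median log2 TPM difference was -0.04 to 0.16 with a library left out.

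No difference of Larp1, Pcbp1, Pcbp2 or Pcbp3 changed direction under any alternative in CPM or TPM. Of 99 fold changes in CPM under other settings, 4 moved by more than the spread between replicates: Larp1 (1.26) and Larp4 (-0.06) with the length trend removed, and Larp4b (-0.09) and Pcbp3 (1.93) with the effective length as offset. Of 36 TPM differences, Larp1 (1.11) and Pcbp3 (1.25) moved with a pseudocount of 1. Of 24 differences in effective length, those of Larp4 (-0.0083) and Pcbp2 (-0.0042) moved when the median over all genes was subtracted. The cause was not tested where calls were lost without a library. No paired analysis was possible because the young and old libraries come from different mice and the labels give only a code for each mouse. Depth limits Larp1b, Pcbp3, Pcbp4 and Larp6.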
